A study of Homo sapiens with 41 samples.

Results

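The regions described here are stretches of chromatin that carried RNA polymerase II (PolII) in both control hairpin (shCtrl) samples and in neither HDAC6 hairpin (shHDAC6) sample. They were chosen by that pattern: the 4 peak lists were merged into 25349 regions on chromosomes 1 to 22 and X, and 1996 regions (7.87%) had a peak in both shCtrl lists and none in either shHDAC6 list. The presence and absence of PolII in these 4 lists therefore chose the regions and is given as a description. Of the 1996 lost regions, 546 lay within 1 kb of either end of a gene, 1173 lay inside genes away from the ends, and 277 lay between genes. For comparison, 16324 regions had a peak in all 4 lists and are called kept regions, and 842 had the reverse pattern (3.32% of all regions) and are called gained.

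The cells were MDA-MB-231, an established line from a triple-negative breast tumour, with epithelial origin given in the labels, and the study asked how loss or inhibition of HDAC6, a deacetylase best known for its cytoplasmic substrate tubulin, changes chromatin. PolII was mapped by ChIP-seq with an Rpb1 CTD antibody in 2 samples each of 4 groups: cells with a hairpin against HDAC6 (shHDAC6), cells with a control hairpin (shCtrl), parental cells given the HDAC6 inhibitor Nexturastat A at 5 µM for 2 days, and parental control cells (Ctrl). ATAC-seq, which marks open chromatin, covered the same 4 groups with 3 samples in each, HDAC6 was mapped in parental and shHDAC6 cells and pan-acetylation in parental cells, all from 100000 cells per library. The labels do not say whether the hairpin lines are clones or pools or how far HDAC6 was reduced, and separate cultures are not stated for replicates, so a p-value covers the spread of these samples alone, possibly a technical one.

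PolII makes all messenger RNA. It assembles at gene starts in open chromatin, often pauses there, moves through the gene body, and slows past the polyadenylation site at the 3′ end before it leaves the template. A peak at a start thus marks assembly or pausing, and signal in bodies and at 3′ ends marks polymerase on its way through or out of a gene.

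A small share of the lost regions lay on starts, and sequences of 5 of those starts are shown because they are the places where a lost region met a promoter. Among protein-coding genes whose strand was known here, VPS41 and THEMIS2 were the starts whose lost regions had the highest PolII percentiles in shCtrl. A lost region at an end of RELB, whose strand was not used here, had a higher mean percentile, 53.1, against 51.0 at VPS41. AXL, IL6 and MX1 are starts that belong to the gene lists described further on. Each window runs from 250 bases before to 50 bases after the RefSeq start in GRCh38.p14, 5′ to 3′ on the strand of the gene. The windows are chr7:38909142-38909441 on the minus strand (VPS41), chr1:27872294-27872593 on the plus strand (THEMIS2), chr19:41218973-41219272 on the plus strand (AXL), chr7:22726950-22727249 on the plus strand (IL6) and chr21:41420308-41420607 on the plus strand (MX1). Capitals mark matches, on either strand, to the CCAAT box (letters CCAAT), the GC box (letters GGGCGG), part of a CRE site (letters TGACG) or the core of an ETS site (letters CGGAAG).
VPS41: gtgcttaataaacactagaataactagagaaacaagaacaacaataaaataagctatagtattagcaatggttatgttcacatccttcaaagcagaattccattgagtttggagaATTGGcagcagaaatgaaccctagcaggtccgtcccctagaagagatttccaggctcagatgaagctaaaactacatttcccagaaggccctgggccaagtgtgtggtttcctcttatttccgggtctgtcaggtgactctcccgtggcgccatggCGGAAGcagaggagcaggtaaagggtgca
THEMIS2: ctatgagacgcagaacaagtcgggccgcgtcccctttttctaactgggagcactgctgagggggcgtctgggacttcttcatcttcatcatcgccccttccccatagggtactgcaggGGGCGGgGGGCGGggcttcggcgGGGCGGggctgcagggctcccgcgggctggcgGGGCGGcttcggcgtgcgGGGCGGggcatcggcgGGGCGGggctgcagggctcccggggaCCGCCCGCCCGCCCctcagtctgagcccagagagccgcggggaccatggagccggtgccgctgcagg
AXL: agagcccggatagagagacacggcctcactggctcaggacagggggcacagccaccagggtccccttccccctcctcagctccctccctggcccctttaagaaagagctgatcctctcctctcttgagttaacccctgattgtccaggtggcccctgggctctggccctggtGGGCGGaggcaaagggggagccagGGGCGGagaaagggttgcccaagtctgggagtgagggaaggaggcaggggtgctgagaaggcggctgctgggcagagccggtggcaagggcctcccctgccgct
IL6: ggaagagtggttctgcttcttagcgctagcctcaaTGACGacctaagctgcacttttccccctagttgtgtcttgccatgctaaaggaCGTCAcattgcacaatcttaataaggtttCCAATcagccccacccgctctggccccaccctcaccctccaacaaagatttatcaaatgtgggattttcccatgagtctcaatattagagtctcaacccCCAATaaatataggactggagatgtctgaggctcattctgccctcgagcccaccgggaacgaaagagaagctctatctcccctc
MX1: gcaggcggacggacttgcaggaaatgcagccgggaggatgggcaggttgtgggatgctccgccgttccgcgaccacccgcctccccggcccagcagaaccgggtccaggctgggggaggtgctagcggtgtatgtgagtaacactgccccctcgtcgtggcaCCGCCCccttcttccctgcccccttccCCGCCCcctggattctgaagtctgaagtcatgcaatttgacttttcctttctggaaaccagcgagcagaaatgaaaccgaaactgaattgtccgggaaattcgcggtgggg

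The window of VPS41, which encodes a subunit of the HOPS tethering complex of lysosomes, held 45.3% G and C and 5 CpG, with a CCAAT match and an ETS match. That of THEMIS2 held 73.3% G and C, 30 CpG and 9 GC boxes. AXL and MX1 had 2 GC boxes each, and IL6 had 2 CCAAT and 2 TGACG matches. Of 34961 RefSeq promoter windows, 106 overlapped a lost region and 15930 overlapped a kept one. GC boxes were found in 57.5% of the lost, 74.9% of the kept and 45.0% of all windows. ETS cores were found in 12.3% of the lost, 32.4% of the kept and 19.4% of all windows. The TATA box TATAAA was found in 11.3% of the lost, 4.34% of the kept and 11.5% of all windows. CCAAT was at 32.1%, 33.6% and 34.6% and TGACG at 24.5%, 34.3% and 24.5% of the lost, kept and all windows. The median window of the lost set held 15 CpG, that of the kept set 28 and that of all windows 14. In base composition, promoter windows at lost regions thus lay nearer to all promoters than to promoters that kept PolII. A match is a run of letters and no evidence of a bound factor.

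HDAC6 itself, the targeted gene, carried PolII in all 8 PolII lists. Its strongest peak had a fold of 6.21 and 5.82 over the caller's background in shHDAC6 samples, against 3.72 and 3.1 in shCtrl samples, at percentiles of 72.5 and 65.2 against 49.5 and 34.7 within each list. Fold and score are the authors' own values and rank peaks within their own list. Folds of different lists are printed side by side here, but their scale differs between lists. At RELB a fold of 5.25 stood at percentile 85.3 in Nexturastat A sample 1, and 5.8 at percentile 53.3 in sample 2. Folds set against each other therefore do not measure a change in PolII. A hairpin acts on the transcript, so the values at HDAC6 are no check of the knockdown. PolII lists held 19519 and 19556 peaks in shHDAC6 samples and 21570 and 21327 in shCtrl samples. Peak number averaged 19537.5 ± 26.2 in shHDAC6 and 21448.5 ± 172 in shCtrl samples (SD over n = 2 per group). A two-sided exact permutation test gave p = 0.33, and groups of 2 allow no smaller value. Peaks covered 28.3 and 27.6 Mb in shHDAC6 samples, against 32.0 and 30.4 Mb in shCtrl samples, with the same exact p. VIM and the keratin genes KRT8 and KRT18 had PolII in all 8 lists, whereas ESR1, GRHL2, PTPRC, CD3E and RBFOX3 had it in none. Of the other genes that the line is known to lack, CDH1 had PolII in 2 of 8 lists and PGR in 1 of 8. The neuron marker SYT1 had it in all 8, and CD44 had it in 6 of 8 lists, both shHDAC6 lists among them and neither shCtrl list. The lists hold no read depth, so a lost region is one where no peak was listed, not one shown to be without polymerase.

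The lost regions were weak in shCtrl. Their median fold was 2.70 and 2.67 in the 2 shCtrl lists, at list percentiles of 23 and 21.9, against 4.39 and 4.63 for kept regions, at percentiles of 61.8 and 61.4. A q under 0.05 in both shCtrl lists was reached by 235 lost regions (11.8%) and by 14600 kept regions (89.4%). Of the 19122 regions with PolII in both shCtrl lists, 10.4% were lost, the background share that the rule itself fixes. In 4 equal groups by shCtrl percentile, from weak to strong, 31.8%, 9.48%, 0.502% and 0.0209% were lost. Near the limit of the lists stood a region between genes near LEP, with folds of 1.88 and 1.86 in shCtrl (mean percentile 0.356), and one inside the septin gene SEPTIN9, with 1.72 and 1.95 (0.368). Just outside the rule stood a region in RUNX1T1, with folds of 6.86 and 6.29 in shCtrl and a peak of 2.41 in shHDAC6 sample 2 alone, and one in OTOGL, with 5.7 and 5.63 in shCtrl and 2.61 in shHDAC6 sample 2.

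The number of lost regions depended on how peaks were counted. When the shCtrl peaks had to reach a −log10 q of 5 and every shHDAC6 peak was allowed, 1 region remained lost, the region inside PGPEP1. When all 4 lists had to reach that value, 196 regions were lost and 879 gained, so the balance of lost and gained turned. Most of these 196 held a weaker shHDAC6 peak, since only 1 region was lost when every shHDAC6 peak was allowed. Median −log10 q was 5.95 and 6.52 in the shCtrl lists, against 11.4 and 11.8 in the shHDAC6 lists. The q values thus differed in scale between the groups, and the part of this in the turn was not tested. With every list shortened to the length of the shortest, 1208 were lost and 1125 gained. Without shCtrl sample 1 the rule gave 3462 lost regions, and without shCtrl sample 2 it gave 3554. The numbers in the peak names show that the shCtrl lists were cut from more calls, up to 38131 and 42193, than the shHDAC6 lists, up to 26860 and 26055. At 437 lost regions (21.9%) the flanking peaks were numbered consecutively in both shHDAC6 lists, so that no peak was called and then removed there. At the others a peak that was called and removed could lie between the flanking peaks.

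**Figure D1:**
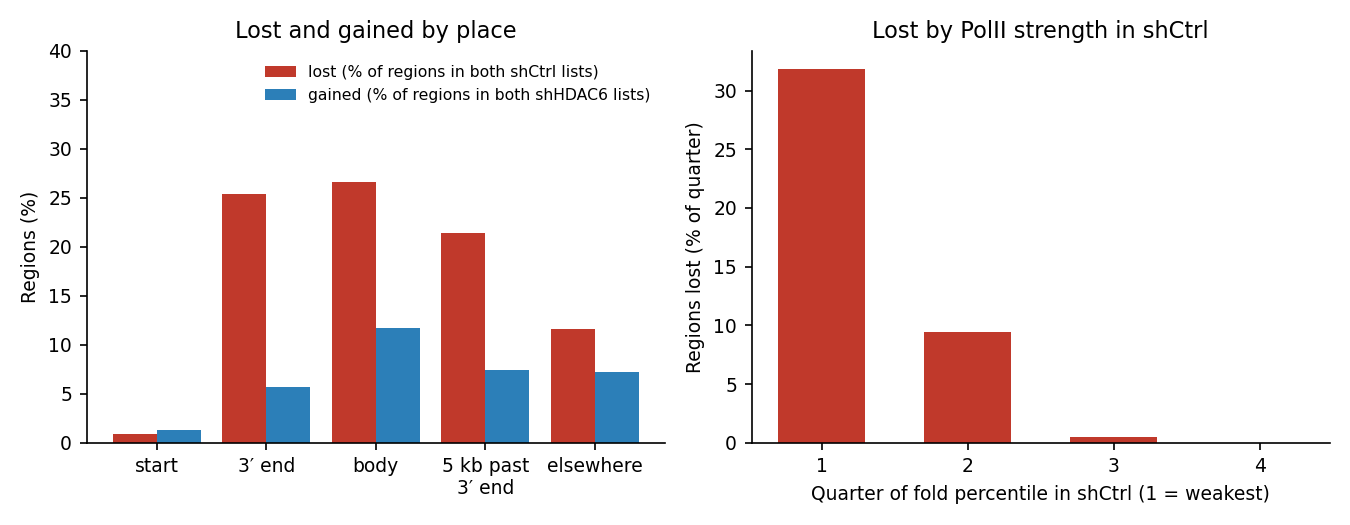
Left, percent of PolII regions lost after HDAC6 knockdown (of regions in both shCtrl lists) and gained (of regions in both shHDAC6 lists) by place on protein-coding genes. Right, percent lost in 4 equal groups by mean fold percentile in shCtrl, 31.8% in the weakest and 0.0209% in the strongest group.

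Lost regions lay in gene bodies and at 3′ ends and seldom at starts. Among 1947 lost regions outside chromosome 8, for which strands were not used here, 964 (49.5%) lay in the body of a protein-coding gene of known strand, against 14.8% of 15755 kept regions. Another 272 (14.0%) lay within 1 kb of a 3′ end, against 4.34% of kept regions, and 102 (5.24%) lay within 5 kb past one, against 2.18%. Only 80 (4.11%) lay within 1 kb of a start, against 54.8% of kept regions. Most of 820 gained regions also lay away from starts, with 40.2% in bodies, 5.24% at 3′ ends and 13.5% at starts. A start here is the outer end of a gene. Lost regions on RefSeq start windows further inside a gene, as at HK1, SEPTIN9 and FAM163B, were counted as bodies. The remaining 529 (27.2%) lay elsewhere, against 23.9%, which includes genes without a strand in the table. Along genes of 5 kb or more, 5 equal parts from 5′ to 3′ held 17.3%, 15.6%, 15.9%, 19.4% and 31.8% of the lost regions in genes. The same parts held 70.9%, 7.83%, 6.88%, 6.13% and 8.25% of the kept regions, and 32.6%, 15.8%, 14.4%, 15.8% and 21.3% of the gained regions. The last part was thus the fullest for lost regions and the first part for kept and gained regions. Among stronger peaks, starts held more lost regions than bodies or 3′ ends. With a −log10 q of at least 5 in all 4 lists, 52 lost regions lay at starts, 42 in bodies and 17 at 3′ ends. Of the 196 lost at this setting, 118 lay within 1 kb of either end of a gene. Shares of kept regions were not computed at this setting, so the contrast with kept regions was not examined there.

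**Figure D2:**
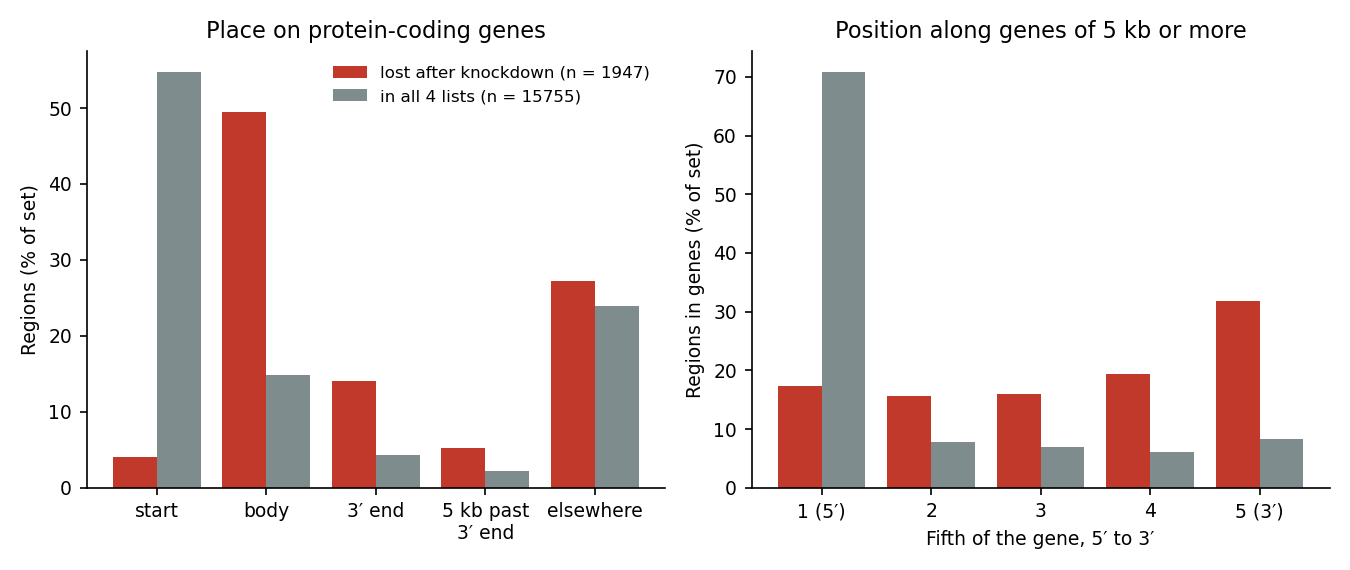
Left, percent of lost and kept regions at starts, in bodies, at 3′ ends, within 5 kb past 3′ ends and elsewhere on protein-coding genes of known strand. Right, percent of regions in 5 equal parts of the gene, with the lost regions fullest in the last part (31.8%) and the kept regions in the first (70.9%).

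Measured from the nearest 3′ end, the kilobase just downstream held the most lost regions, 5.34%, and the 2 kilobases before the end held 4.37% and 4.31%. In the kept regions the same bins held 2.56%, 2.02% and 2.11%. At the nearest start, the first kilobase downstream held 2.67% of lost, 33.5% of kept and 8.9% of gained regions. Lost regions were therefore not concentrated at starts, where kept regions had their peak.

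**Figure D3:**
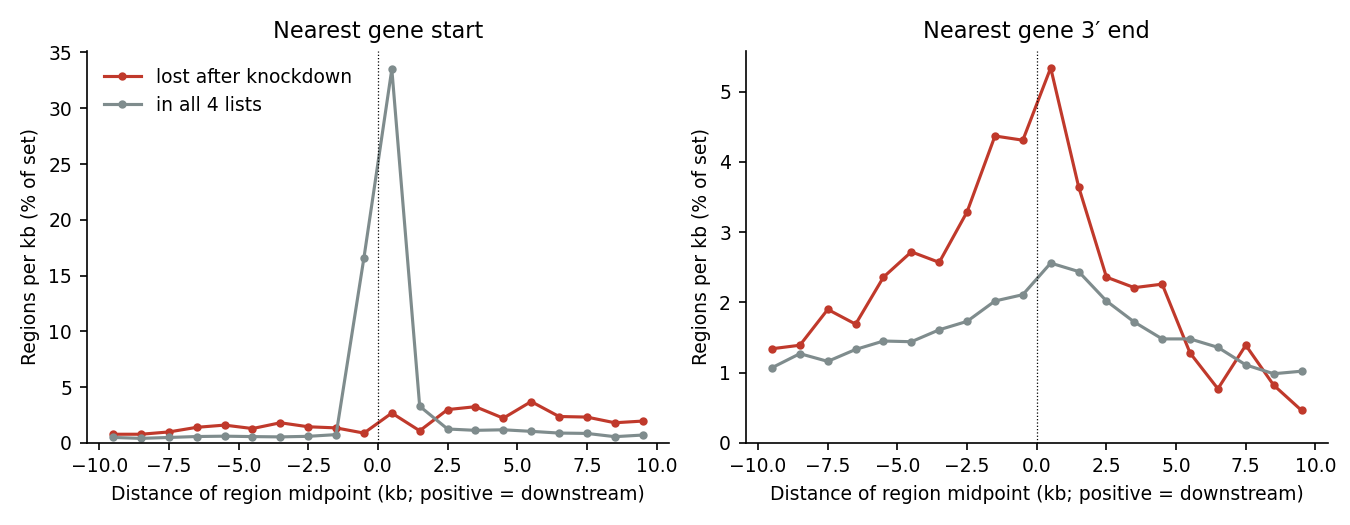
Percent of lost and kept regions per kb of distance from the nearest start (left) and the nearest 3′ end (right) of a protein-coding gene, measured to the region midpoint. The lost regions were at 5.34% in the kilobase past the 3′ end, against 2.56% of kept regions, and at 2.67% in the kilobase past the start, against 33.5%.

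The difference in place was also seen among regions of like fold. In the weakest of the 4 groups by shCtrl percentile, 51.9% of lost and 24.1% of kept regions lay in bodies, 13.8% and 10.6% at 3′ ends, and 4.52% and 33.1% at starts. In the next group, 42.8% of lost and 18.5% of kept regions lay in bodies, 14.6% and 5.9% at 3′ ends, and 2.96% and 44.3% at starts. Weak kept regions thus stood at starts far more often than weak lost ones.

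These counts by place come from the lists that chose the regions and are given as a description. Of the regions with PolII in both shCtrl lists, 272 of 1072 at 3′ ends were lost (25.4%), and 43 of 758 with PolII in both shHDAC6 lists were gained (5.67%). In bodies 964 of 3621 were lost (26.6%) and 330 of 2813 gained (11.7%). At starts 80 of 8770 were lost (0.912%) and 111 of 8814 gained (1.26%). The excess of losses at 3′ ends and in bodies and of gains at starts kept its direction at equal list length, with 172 lost and 74 gained at 3′ ends, 548 and 420 in bodies, and 48 and 149 at starts. With a −log10 q of at least 5 in all lists the direction turned at 3′ ends, with 17 lost and 30 gained, and in bodies, with 42 and 153. At starts it was kept, with 52 lost and 398 gained. At this setting most lost regions still held a weaker shHDAC6 peak, and q values were higher in the shHDAC6 lists, as given above.

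The lost regions were shorter than kept regions and mostly lay some kilobases from them, as did the gained regions. Their width had a median of 671 bp (358 to 7812 bp), against 1593 bp for kept regions, and was 912 bp at gene ends, 636 bp inside genes and 582 bp between genes. The nearest kept region was a median of 8963 bp away, and 379 lost regions (19.0%) lay within 2 kb of one. Gained regions had a median width of 596 bp and a median distance of 20122 bp, and 10.2% lay within 2 kb of a kept region. Peaks on lost regions covered 1.83 and 1.72 Mb in the 2 shCtrl lists. Peaks on kept regions covered 26.4 and 25.8 Mb in shHDAC6 samples, against 27.6 and 26.7 Mb in shCtrl samples.

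The widest lost regions were 3 stretches at 3′ ends of genes. That at FARP2, a guanine nucleotide exchange factor gene, spanned 7812 bp (chr2:241494125-241501936). It had no peak in either shHDAC6 list, against folds of 2.58 and 2.51 in shCtrl samples, and 2.8 and 1.98 with Nexturastat A, against none in Ctrl. In the shHDAC6 lists 4 and 3 peak numbers were missing there. The stretch at CCDC157 and RNF215 spanned 7430 bp and that at NOXA1, an activator of an NADPH oxidase, and ENTPD8 5981 bp. All 3 thus showed low folds spread over several kilobases, with mean shCtrl percentiles of 16.1 to 16.8.

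Genes that held a lost region mostly kept PolII at their own start. Of 13659 protein-coding genes with PolII in both shCtrl lists, 1508 held a lost region (11.0%). Of those with a known strand, 1001 of 1233 had a kept region at the start (81.2%), against 8866 of 9931 other genes (89.3%). A single lost region was held by 1277 genes, 2 by 183, 3 by 34, 4 by 10, 5 by 2, 6 by 1 and 9 by 1.

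ANKRD11, a chromatin regulator gene of 222932 bp on chromosome 16, held the most, 9 of its 14 PolII regions, while its start was kept. Between the listed peaks that flank these 9 regions, 5 or 15 numbers were missing in shHDAC6 sample 1 and 1 to 5 in sample 2, so peaks had been removed from these intervals. One of them lay at its 3′ end (chr16:89268429-89269212), where no peak was listed in shHDAC6 samples, against folds of 2.74 and 2.5 in shCtrl samples. With Nexturastat A that region had folds of 2.94 and 3.6, against none and 2.55 in Ctrl. GSE1, on the same chromosome, lost 6 of 16 regions and AGAP3, a GTPase-activating protein gene for ARF GTPases, lost 5 of 9, and both kept PolII at their starts. LOC128462377, which lies within ANKRD11, accounts for 5 of the regions of ANKRD11. Numbers were also missing between the flanking peaks at GSE1, 1 or 2 in shHDAC6 sample 1 and 0 or 4 in sample 2. At AGAP3 they were 1 or 3 in sample 1 and 1 to 3 in sample 2.

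TXNDC5, which encodes a protein disulfide isomerase of the endoplasmic reticulum, lost 4 of 5 regions, all but that at its start. The region at its 3′ end, shared with the 3′ end of the growth factor gene BMP6 (chr6:7880617-7881101), had no peak in shHDAC6 samples, against folds of 4.67 and 3.89 in shCtrl samples. It had 4.31 and 2.69 with Nexturastat A, against 4.14 and none in Ctrl. The other 3 regions of TXNDC5 had shCtrl folds of 2.41 and 2.48, 2.94 and 3.49, and 2.81 and 2.8. At each of the 4, 1 number was missing between the flanking peaks in both shHDAC6 lists. Neighbouring regions can share their flanking peaks, so this may be the same missing number at all 4. PRKDC, the gene of the DNA-dependent protein kinase catalytic subunit, also lost 4 of 5.

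At gene ends, the strongest lost region lay where the 3′ ends of BCS1L, a chaperone for assembly of respiratory complex III, and RNF25, a ubiquitin ligase gene, meet (chr2:218663813-218664477). It had no peak in shHDAC6 samples, against folds of 4.87 and 5.49 in shCtrl samples (mean percentile 70.5). Between the flanking peaks 1 number was missing in shHDAC6 sample 1 and 0 in sample 2. The region had folds of 3.86 and 3.57 with Nexturastat A, against none and 2.62 in Ctrl. The region was therefore listed in both shCtrl and both inhibitor samples and in 1 Ctrl sample.

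Of the other 11 strongest lost regions at gene ends, 7 lay at 3′ ends of protein-coding genes, at BMP6 with TXNDC5, the serine dehydratase gene SDS, ZCCHC14, the glutathione transferase gene GSTO2, the glycolytic gene PGAM1, NDEL1 with the non-muscle myosin gene MYH10, and SLC61A1. VPS41 lay at a start, RELB, an NF-kB subunit gene, at an end whose strand was not used here, and DUX4L2 and the pseudogene PTGES3P3 have near-identical copies, so their values are uncertain. Mean shCtrl percentiles of the 11 ran between 50.6 and 58.1. SDS had folds of 4.19 and 4.23 in shCtrl samples, 4.65 in Nexturastat A sample 2 and 6.13 in Ctrl sample 2. GSTO2 had folds of 3.75 and 4.09 in shCtrl samples, 3.18 in Nexturastat A sample 2 and 3.39 in Ctrl sample 2. At SDS, GSTO2 and VPS41 an ATAC peak was present in all 3 shHDAC6 and all 3 shCtrl samples, and likewise at PTGES3P3.

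VPS41 (chr7:38908736-38909239) had no PolII peak in shHDAC6 samples, against folds of 4.51 and 3.25 in shCtrl samples, and 3.66 and 3.14 with Nexturastat A, against 6.03 and 6.29 in Ctrl. RELB (chr19:45001104-45002173) had none, against 4.2 and 3.74 in shCtrl, and 5.25 and 5.8 with Nexturastat A, against 5.68 and 5.76 in Ctrl. PolII at both was thus listed in 6 of 8 lists, all but those of shHDAC6. Flanking peaks at VPS41 were numbered consecutively in both shHDAC6 lists, whereas 2 and 3 numbers were missing at RELB. THEMIS2 (chr1:27872321-27873000) had folds of 3.51 and 4.15 in shCtrl samples, and 6.18 and 8.21 with Nexturastat A, against 8.07 and 3.95 in Ctrl.

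**Figure D4:**
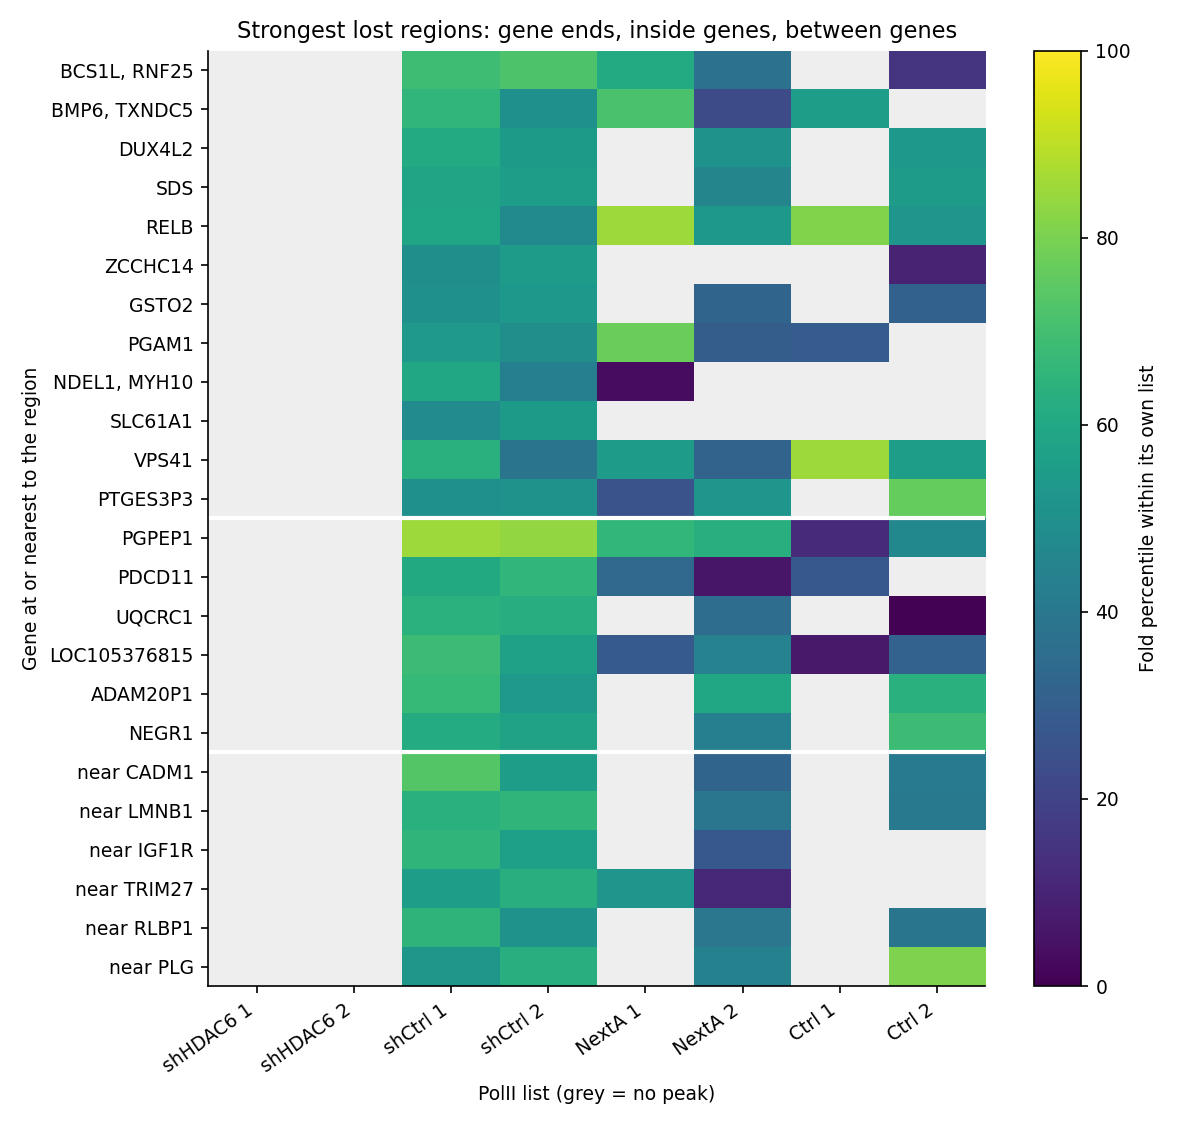
Fold percentile within its own list (colour, 0 to 100) of the strongest lost regions at gene ends, inside genes and between genes, by PolII list, with NextA for Nexturastat A. Grey marks lists with no peak, as in both shHDAC6 lists throughout, and PGPEP1 has the highest shCtrl percentiles, 85.4 and 83.7.

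Inside genes, one region stood above all others. In PGPEP1, a pyroglutamyl peptidase gene (chr19:18364179-18365966), no peak was listed in shHDAC6 samples, against folds of 6.43 and 6.82 in shCtrl samples (percentiles 85.4 and 83.7). It had folds of 4.05 and 7.24 with Nexturastat A, against 3 and 4.96 in Ctrl. Flanking peaks were numbered consecutively in both shHDAC6 lists, so no peak was called there at all, and an ATAC peak was present in 0 of 3 shHDAC6 and 1 of 3 shCtrl samples. Next came PDCD11, a ribosomal RNA processing gene, with folds of 4.33 and 4.97 in shCtrl samples, and UQCRC1, a core subunit gene of respiratory complex III, with 4.54 and 4.69. LOC105376815 (4.84 and 4.33), the pseudogene ADAM20P1 (4.73 and 4.12) and NEGR1, a neuronal adhesion gene (4.39 and 4.37), followed. NEGR1 had 4.28 in Nexturastat A sample 2, against 8.24 in Ctrl sample 2.

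Between genes, the strongest lost regions stood near CADM1 (shCtrl folds of 5.21 and 4.24), near the lamin B1 gene LMNB1 (4.51 and 4.92), near IGF1R (4.63 and 4.29), near TRIM27 (4.04 and 4.75), near RLBP1 (4.59 and 3.96) and near PLG (3.9 and 4.73). The distance to the nearest gene end ran from 2590 bp at RLBP1 to 149418 bp at CADM1. In the parental line, the region near PLG had folds of 4.39 in Nexturastat A sample 2 and 10.3 in Ctrl sample 2. Of these 6, ATAC peaks were present in all 3 shHDAC6 and all 3 shCtrl samples at RLBP1 alone.

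Open chromatin was uncommon at the lost regions. An ATAC peak was found at 12.6%, 10.7% and 11.9% of them in the 3 shHDAC6 samples, against 14.9%, 14.3% and 12.8% in the 3 shCtrl samples. For kept regions these shares were 80.5%, 73.5% and 76.5%, against 77.5%, 78.7% and 75.8%. All 3 shCtrl samples had a peak at 170 lost regions (8.52%) and none of the 6 had one at 1523 (76.3%), against 68.1% and 11.1% of kept regions. For gained regions these shares were 22.2% and 54.3%. In the weakest of the 4 groups by shCtrl PolII percentile the shares in all 3 shCtrl samples were 7.77% for lost and 36.8% for kept regions. Lost regions between genes had ATAC in all 3 shCtrl samples most often, 17.7%, against 9.16% at gene ends and 6.05% inside genes.

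An ATAC peak was lost after knockdown, present in all 3 shCtrl and no shHDAC6 sample, at 9 lost PolII regions (0.451%), beside 0.356% of all 19122 regions with PolII in both shCtrl lists. Of the 170 that could lose one, this was 5.29%, beside 0.595% of 11430. An ATAC peak was gained at 2 (0.1%), beside 0.256%, which is 0.125% of the 1595 that could gain one, beside 1.1%. The ATAC peaks were weak: the 9 had a median ATAC fold percentile of 23.7, and among regions with an ATAC percentile under 50, 8 of 79 lost regions (10.1%) and 48 of 2922 kept regions (1.64%) lost the ATAC peak. Leaving out 1 ATAC sample moved the 9 to between 12 and 22, with 19 without shHDAC6 sample 1, 17 without shCtrl sample 1 or 2, and 22 without shCtrl sample 3. A single region cannot go below an exact p of 0.1 in 3 against 3 samples, and no test was made over the regions.

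Of the 9 ATAC losses, the 8 with the highest PolII percentile lay inside ZFHX3, a homeobox factor gene (chr16:72927471-72927914), inside the neurotrophin gene BDNF (chr11:27665428-27666030), inside FAM163B, at an end of LOC124902533, and between genes near GAP43, TBC1D32, LOC107985876 and FOXD1. At ZFHX3 PolII had folds of 3.49 and 3.56 in shCtrl samples, 5.54 in Nexturastat A sample 2 and 2.47 in Ctrl sample 2. At BDNF PolII had folds of 2.63 and 3.08 in shCtrl samples, 3.07 in Nexturastat A sample 1 and 2.34 in Ctrl sample 2. In the parental line, ATAC peaks were present at BDNF in 2 of 3 Nexturastat A and 2 of 3 Ctrl samples and near FOXD1 in all 3 of each. At FAM163B and LOC124902533 no parental ATAC sample had a peak.

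In parental cells, which the rule did not use, many of the regions carried no PolII peak. The first pair of these lists has complete peak numbering, and the second Nexturastat A and Ctrl lists kept 75.5% and 88.5% of their numbers. Of the lost regions, 640 (32.1%) and 1068 (53.5%) had a PolII peak in the 2 Nexturastat A samples, against 330 (16.5%) and 569 (28.5%) in the 2 Ctrl samples. None of these 4 lists had a peak at 597 (29.9%) and all 4 had one at 99 (4.96%), against 0.355% and 71.1% of kept regions. For gained regions these shares were 23.6% and 10.1%. In the weakest of the 4 groups by shCtrl percentile, lost regions had a peak in 31.9% and 49.5% with Nexturastat A, against 16.1% and 24.3% in Ctrl. Kept regions of that group had 50.8% and 96.5%, against 42.9% and 84.6%.

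More lost regions had PolII with the inhibitor than in Ctrl in both same-numbered pairs. In the first pair 347 had a peak with Nexturastat A alone and 37 in Ctrl alone, and in the second 591 and 92. Kept regions moved the same way, with 737 and 242 in the first pair and 573 and 52 in the second. PolII was gained at 130 lost regions (6.51%), in both Nexturastat A and no Ctrl sample, beside 1.64% of all 19122 regions. Of the 1227 that could gain it, this was 10.6%, beside 15.5% of 2022, and 24.2% of kept regions, so the gain was not more frequent than the background once the regions already listed in Ctrl were set aside. PolII was lost with the inhibitor at 0, beside a background of 0.0%. The lists covered 47.9 and 37.4 Mb with Nexturastat A, against 26.1 and 35.5 Mb in Ctrl, and the peaks on lost regions had median widths of 1766 and 698 bp, against 1160 and 663 bp in Ctrl. In Nexturastat A samples 21.6% and 4.03% of these peaks reached a kept region, against 15.5% and 2.99% in Ctrl. The part of list length and peak width in this difference was not tested. Without Ctrl sample 1 the gains numbered 239 and the losses 65, without Nexturastat A sample 1 the gains numbered 477, and without Nexturastat A sample 2 they numbered 283.

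By position, lost regions at gene ends had PolII in 46.3% and 59.3% with Nexturastat A, against 25.1% and 28.9% in Ctrl. Those inside genes had 29.2% and 48.6%, against 14.7% and 21.3%. Those between genes had 16.2% and 62.8%, against 7.22% and 58.1%, and there the first samples of both groups were far below the second.

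HDAC6 was rarely listed at lost regions. In parental Ctrl cells HDAC6 ChIP peaks, made with a different antibody in each sample (CST in the first, Novus in the second), lay on 9.27% and 7.36% of them and CUT&Tag peaks 5.36% and 7.21%, against 71.1%, 26.2%, 49.6% and 63.4% of kept regions. None of the 4 lists had a peak at 77.6% of lost regions, against 14.5% of kept regions and 58.9% of gained regions. In the same order of lists, 21.1%, 12.6%, 11.0% and 15.8% of gained regions had a peak. HDAC6 was not compared among regions of like PolII fold. All 4 lists had a peak at 1 lost region, against 1753 kept regions (10.7%). Pan-acetyl peaks lay on 14.2% and 4.41% of lost regions with Nexturastat A, against 0.0501% and 2.35% in Ctrl, and on 75% and 47.8% of kept regions, against 7.61% and 23%. For gained regions these shares were 26.1% and 9.14%, against 0.238% and 5.23%. The pan-acetyl lists held 28473 and 61186 peaks with Nexturastat A, against 1418 and 41411 in Ctrl. The part of list length in this difference was not tested.

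**Figure D5:**
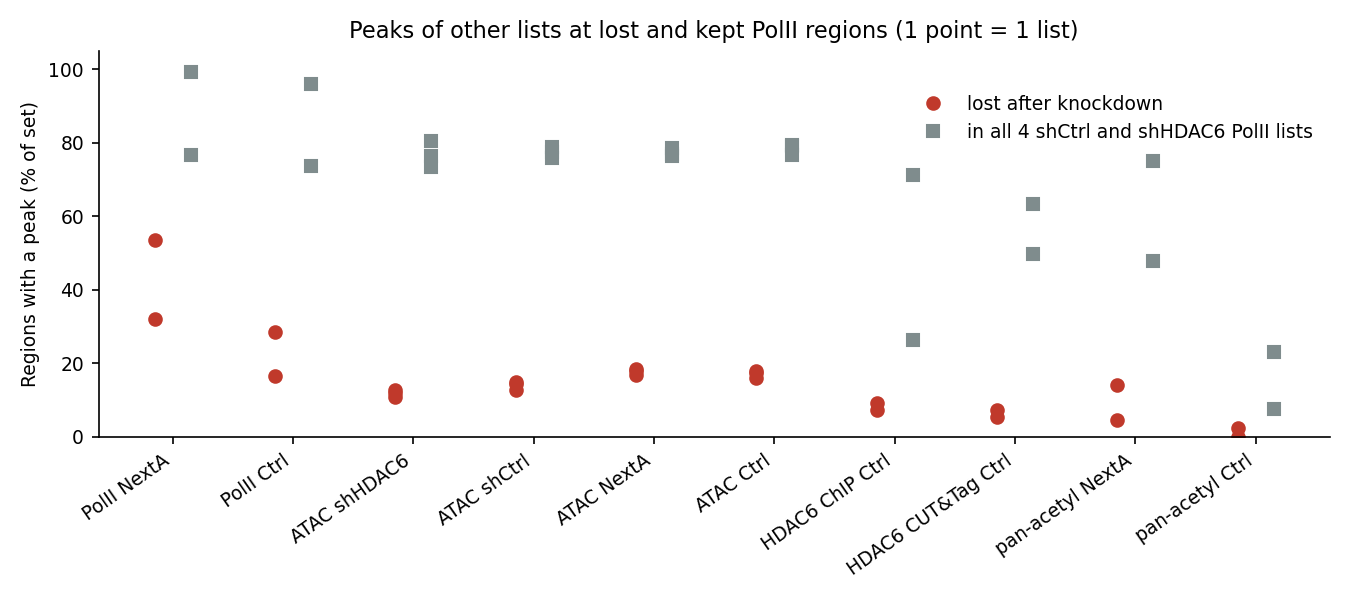
Percent of lost (circles) and kept (squares) PolII regions with a peak in each list of other samples and assays, 1 point per list, with NextA for Nexturastat A. Lost regions lie below kept regions in every group, at 32.1% and 53.5% for PolII with Nexturastat A, against 16.5% and 28.5% for PolII in Ctrl, and at 14.9% or lower for ATAC in shHDAC6 and shCtrl samples.

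Lost regions were spread over many gene groups, and each count is given beside the 11.0% of all genes with PolII that held one. In the autophagy, lysosome and ubiquitin list 9 of 30 genes held a lost region (30.0%). They include the lysosomal protease gene CTSB (folds of 3.45 and 4.16 in shCtrl samples, 3.77 and 3.33 with Nexturastat A, and 4.3 and none in Ctrl), the ubiquitin-activating enzyme gene UBA1 (3.26 and 3.57 in shCtrl) and the lysosomal membrane gene LAMP1 (3.21 and 3.29 in shCtrl), the last pair at 3′ ends. Among cyclin, CDK and replication genes 9 of 31 held one (29.0%). At the 3′ end of the cell cycle inhibitor gene CDKN2A the shCtrl folds were 3.6 and 4.05, and inside the replicative helicase genes MCM2 and MCM5 they were 3.12 and 3.37, and 3.48 and 2.93. These lists were small, and no test was made over them. Median gene lengths in the 2 lists were 24923 and 19900 bp, against 31347 bp for all genes.

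In the growth factor and oncogene signalling list 9 of 40 genes held a lost region (22.5%), among them IGF1R (shCtrl folds of 3.16 and 3.38), the TGF-beta inhibitor gene SMAD7 (2.89 and 3.71) and VEGFA (2.66 and 3.17). Matrix and protease genes held one in 5 of 20 (25%), with PLAT, COL4A2 and ADAM12, and hypoxia and glycolysis genes in 5 of 22 (22.7%), with PFKFB3 (3.71 and 3.54), VHL (3.97 and 3.18) and HK1 (3.03 and 3). Actin and adhesion genes had 4 of 24 (16.7%), with MYH9, ITGA3 and ACTN4, heat shock genes 3 of 19 (15.8%), and oxidative phosphorylation genes 8 of 75 (10.7%), with UQCRC1, UQCRH and NDUFA10. YAP and TEAD genes had 3 of 15, and architecture genes 3 of 22 (13.6%), with the lamin A gene LMNA and the condensin gene NCAPH. Median gene length was 64524 bp in the growth factor list and 62789 bp in the matrix and protease list, against 31347 bp for all genes. The part of gene length in these shares was not tested.

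Among tubulin and microtubule genes 6 of 28 held a lost region (21.4%). At the 3′ end of the alpha-tubulin gene TUBA1B (chr12:49126026-49128399) no peak was listed in shHDAC6 samples, against folds of 2.83 and 2.85 in shCtrl samples, and 9.37 and 12.6 with Nexturastat A, against 7.49 and none in Ctrl. The region is 756 bp from a kept one, and a parental peak on it can reach beyond it. Between the flanking peaks 1 number was missing in each shHDAC6 list. TUBA4A, at its 3′ end next to STK16, had 3.58 and 3.32 in shCtrl samples, and MAP4, a microtubule-associated protein gene, had 2.75 and 2.74 inside the gene. Of the deacetylase, acetyltransferase and reader genes 6 of 30 held one, with the acetyltransferase gene KAT2A (3.03 and 3.5) and the mitochondrial deacetylase gene SIRT3 (2.97 and 2.58) at 3′ ends.

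Heat shock and ribosomal protein genes were among those with lost regions at 3′ ends. At HSPA8, a constitutive chaperone gene, a stretch of 5336 bp at the 3′ end had no peak in shHDAC6 samples, against folds of 2.62 and 2.37 in shCtrl samples, and 5.37 and 6.35 with Nexturastat A, against 8.29 and 2.42 in Ctrl. At RPS21 a stretch of 4032 bp had shCtrl folds of 2.56 and 2.6, and 5.67 and 5.75 with Nexturastat A, against 5.71 and none in Ctrl. Both lay near kept PolII, at 1143 and 657 bp. In shHDAC6 samples 1 and 2, 2 and 3 numbers were missing between the flanking peaks at HSPA8, and 3 and 6 at RPS21. As a group, cytosolic ribosomal protein genes held a lost region in 5 of 79 (6.33%), zinc finger ZNF genes in 23 of 408 (5.64%) and replication-dependent histone genes in 0 of 50, all below the 11.0% of all genes. Genes of these lists were shorter, with median lengths of 5127, 23417 and 496 bp, against 31347 bp for all genes. The part of gene length in these shares was not tested.

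Inducible and identity genes held a lost region in 11.8% each of the NF-kB and cytokine list and the interferon and antigen list, beside 11.0% of all genes. The share was 9.09% in the epithelial, 5.88% in the mesenchymal and 4.55% in the AP-1 list. Each of these shares rests on 1 or 2 genes, too few to rank the lists. AP-1 list genes had a median length of 6497 bp, against 31347 bp for all genes. AXL, a receptor tyrosine kinase gene of mesenchymal-like breast cancer cells, was the single gene of the mesenchymal list (1 of 17). At its start (chr19:41218870-41219551), whose sequence is given above, no peak was listed in shHDAC6 samples, against folds of 2.52 and 2.33 in shCtrl samples, and 4.46 and 4.65 with Nexturastat A, against 4.16 and 4.15 in Ctrl. PolII at AXL was thus listed in both shCtrl and all 4 parental samples, and no ATAC peak was listed there in any shHDAC6 or shCtrl sample. Between the flanking PolII peaks at AXL, 1 number was missing in shHDAC6 sample 1 and 0 in sample 2.

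IL6, a cytokine gene (2 of 17 of the NF-kB and cytokine list, with RELB), had no PolII peak at its start in shHDAC6 samples, against folds of 2.53 and 2.86 in shCtrl samples, and 2.65 and 3.7 with Nexturastat A, against none and 6.15 in Ctrl. ATAC peaks at IL6 were in 1 of 3 shHDAC6 and 2 of 3 shCtrl samples, and flanking PolII peaks were numbered consecutively in both shHDAC6 lists. MX1, an interferon-induced antiviral gene (2 of 17 of the interferon and antigen list, with TAPBP), had none, against 2.4 and 2.22 in shCtrl, and 3.77 and 4.75 with Nexturastat A, against 3.47 and 3.87 in Ctrl. At both starts the lost peak was among the weaker ones of the shCtrl lists, at mean percentiles of 22.2 and 6.63. At MX1, 1 number was missing between the flanking peaks in each shHDAC6 list.

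Of the remaining lists, epithelial genes had 1 of 11 (GATA3, inside the gene), AP-1 and immediate early genes 1 of 22 (FOSL1), p53 and damage genes 3 of 22, basal breast genes 0 of 6 and olfactory receptors 0 of 6. FOSL1 had folds of 2.24 and 2.68 in shCtrl samples, and 8 and 2.47 with Nexturastat A, against 8.16 and 2.34 in Ctrl, in a region 689 bp from kept PolII. Clustered protocadherin genes held one in 22 of 22, but through only 2 regions, one at the start of PCDHGC3 and one at the far end that the gamma genes share. Of markers of other cell types, leukocyte genes held a lost region in 0 of 4 and neuron genes in 2 of 11, SNAP25 and ELAVL3.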

How the data were processed

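PolII ChIP, ATAC, HDAC6 and pan-acetyl peak lists of 32 of the 41 samples were used, and the other 9 were not analysed here. Groups came from the labels. Per the submitters' processing notes, which give no roles, the build was GRCh38 and the tools included MACS2 2.2.7.1, Bowtie2 2.4.4, ChIPseeker 1.28.2, Trim Galore 0.6.7, deepTools 3.5.1 and SAMtools 1.13. Each deposited list is of 1 sample, called by the authors, and read depth is not given. The deposited score is a whole number, by the values 10 times −log10 of the p or q that the authors' caller gave. The deposited fold is a ratio over the caller's background, and the deposited −log10 p-value and −log10 q-value follow it. Deposited ATAC lists also give a summit offset, which was not used. The PolII shCtrl and shHDAC6 lists end at a −log10 p of 2, and gaps in the peak numbers show that peaks were removed after calling.

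Repeated lines were merged and chromosomes 1 to 22 and X kept. Peaks of the 4 PolII lists that overlapped by at least 1 bp were joined into regions, and a list held a region if a peak overlapped it by at least 1 bp. Fold percentiles were ranked within each list, and a region took its strongest peak. Gene positions came from a RefSeq table (GRCh38.p14), and strands of 15811 of 19970 protein-coding genes from a RefSeq promoter table, which was matched by gene and held no entry on chromosome 8. Lost and gained mean that all samples of one group and none of the other have a peak. Only list lengths were tested, by exact permutation. The regions, gene lists and named genes were chosen with earlier results of these data known.

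Named were HDAC6, the lost regions of highest shCtrl percentile (12 at gene ends, 6 inside genes and 6 between genes), 8 with a lost ATAC peak, the 3 widest, those nearest to the limits of the rule, genes with 3 or more lost regions (at most 6 of them) and up to 3 per gene list; some of these are not reported here. THEMIS2 was added after its values were seen. Other settings tried were list lengths made equal, a floor of 5 on −log10 q, peaks joined across 500 bp or 2 kb, 200 bp of overlap, gene ends of 500 bp and 3 kb, protein-coding genes only, and leaving out each sample. The region rule was tested on simulated lists. Software was Python 3.11.15, pandas 2.3.3 and SciPy 1.17.1.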

Additional observations from a re-analysis of the deposited data

How the results depend on the processing

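No paired analysis was possible because no model with a replicate block was fitted to the lost regions, which come from a rule on peak presence and from no test; same-numbered Nexturastat A and Ctrl lists were compared by counts alone. With a −log10 q of at least 5 in all 4 PolII lists, 196 regions were lost, 118 at gene ends, 45 inside genes and 33 between genes. With that value asked of shCtrl alone, 1 was lost, 0 at gene ends, 1 inside a gene and 0 between genes. At equal list length 1208 were lost, 335 at gene ends, 690 inside genes and 183 between genes. Gene ends of 3 kb held 982. Joining peaks across 500 bp or 2 kb, gene ends of 500 bp and protein-coding genes alone kept each count within 1.5 times its value. Leaving out 1 sample gave 2396 to 3554 lost regions, 688 to 875 at gene ends, 1369 to 2194 inside genes and 335 to 485 between genes, and more regions meet a rule that asks fewer lists.

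ATAC peaks lost at these regions numbered 3 with a −log10 q of at least 5 and 12 to 22 without 1 sample, and those gained 4 at equal list length and 2 to 7 without 1 sample. PolII peaks lost with Nexturastat A numbered 1 with an overlap of 200 bp, 4 with a −log10 q of at least 5, 1 at equal list length and 15 to 65 without 1 sample. Those gained numbered 12 with a −log10 q of at least 5, 82 at equal list length and 183 to 477 without 1 sample. Counts of lost and gained regions at starts, bodies and 3′ ends were recomputed under settings chosen after seeing the data. Depth is unknown, so how far it sets which weak peaks were called was not tested.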

Other observations

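The lost regions were not spread evenly over chromosomes. Chromosome 19 held 250 of them (12.5%), against 8.53% of all regions with PolII in both shCtrl lists. By chromosome, the share lost was highest on chromosomes 16 (15.6%), 22 (15.5%), 19 (15.3%) and 20 (13.4%) and lowest on chromosomes 13 (6.4%) and 4 (6.71%). Chromosome 16 carries ANKRD11 and GSE1, the genes with the most lost regions.

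In RefSeq, 11 miRNA hairpins lay within or across lost regions, among them MIR296, MIR877, MIR6126, MIR3618 and MIR6890. Hairpins in kept regions were not counted, so the 11 have no background to be read against. A PolII peak over a hairpin does not show that the miRNA is made from it.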
